A study of Mus musculus with 6 samples.

Results

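Ferritin, ferroportin and the enzymes that free iron from heme were followed through 10 genes chosen by name: the ferritin chains Fth1 and Ftl1, the ferritin receptor Ncoa4, the heme-degrading enzymes Hmox1, Hmox2, Blvra and Blvrb, the exporter Slc40a1 and the ferroxidases Cp and Heph. Each of the 10 symbols had exactly 1 row among the 35275 genes of the deposited expression table. RNA sequencing had been done on epididymal adipose tissue, the visceral fat beside the testis, from C57BL/6 males. The 3 control samples were labelled Tfrcfl/fl, the floxed genotype for the transferrin receptor gene, and the 3 knockout samples TfrcAKO, a name known for deletion of that gene in adipocytes, although the labels do not spell it out and the Cre driver is not given in the sources used here. Both groups ate a 60% fat diet for 10 weeks from the age of 2 months, and tissue was taken at 4.5 months. No sample on a normal diet is part of the comparison, which asks how the mRNAs of iron storage and release in the whole depot differ when the receptor for iron uptake is deleted in its fat cells.

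Iron that a cell does not use is kept inside ferritin, a hollow shell built of heavy chains, which oxidise iron, and light chains, which help to form the mineral core. NCOA4 carries ferritin to the lysosome when iron is needed. Heme oxygenase opens heme to biliverdin, carbon monoxide and iron, biliverdin reductase turns biliverdin into bilirubin, and ferroportin is the known route of iron out of the cell, where a copper-containing ferroxidase oxidises it for transferrin. In adipose tissue, resident macrophages as well as adipocytes handle iron, and heme oxygenase 1 and ferroportin are abundant in macrophages that recycle heme.

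Ferritin and ferroportin mRNAs are known to carry an iron-responsive element, a hairpin in the 5′ untranslated region that iron regulatory proteins bind to hold back translation when iron is low. The hairpin is printed because it is what separates the storage and export genes from the other genes of the set at the level of sequence. It was searched for as the loop CAGTGN on top of a stem of 5 base pairs, G with T allowed, with a C just below the stem on its 5′ side. Whether that C could pair was not checked. Of the 10 genes, 3 held this hairpin. The transcripts of GENCODE M21 (GRCm38) gave the following DNA letters, 30 bases each, 5′ to 3′, with that C and the loop in capitals.
Fth1, chr19:9982732-9982761, plus strand: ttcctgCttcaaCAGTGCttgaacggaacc
Ftl1, chr7:45459778-45459807, minus strand: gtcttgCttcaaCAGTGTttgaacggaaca
Slc40a1, chr1:45925464-45925493, minus strand: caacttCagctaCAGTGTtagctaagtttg
The 2 ferritin chains shared the same 5 stem pairs, ttcaa with ttgaa, while ferroportin had agcta with tagct. The loop letters alone were common, in 35.0% of the 20045 protein-coding genes with an annotated 5′ untranslated region of at least 30 bases, and in 7 of the 10 genes. The whole hairpin was found in 30 genes, 0.15% of them. It acts on translation, which mRNA abundance does not measure.

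Gene-assigned reads, worked back from the deposited FPKM values (fragments per kilobase of gene length, scaled to the reads of each library), numbered 25252839 to 30650624 per sample, and every gene of the set had at least 281 reads in each sample. Tfrc itself was at 12.1 ± 1.08 FPKM in control and 8.29 ± 1.20 FPKM in knockout tissue (SD, n = 3 each). In replicates 1 to 3 it was at 11.1, 13.2 and 11.9 FPKM in control and 7.10, 8.27 and 9.50 FPKM in knockout samples. Among the knockouts it was thus highest in replicate 3. Knockout replicate 3 stood apart from the other samples on the first principal component, at 60.9 against 21.7 and 25.2 for the other knockout samples and −41.7 to −28.6 for the controls. In limma, with p-values adjusted over all 14383 tested genes, 43.5% of genes differed between the groups at an adjusted p under 0.05, and 60.1% had group values that did not overlap. Without control replicate 2 the share called was 23.6% (3336 genes), and without control replicate 3 it was 24.2% (3421 genes). Cell type markers moved with the groups as well. Summed over 19 macrophage markers, the level was 7811 to 9413 FPKM in control and 2095 to 4561 FPKM in knockout samples, lowest in knockout replicate 3, and 14 of the 19 were lower. Summed over 18 mature adipocyte markers it was 7814 to 11311 FPKM in control and 20497 to 28629 FPKM in knockout samples, highest in knockout replicate 3, and 17 of the 18 were higher. No marker of either list was at 0 in all samples. In whole tissue, fewer cells of a type and less RNA per cell cannot be told apart, and the part of these shifts in the results below was not tested.

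All genes of iron storage and heme breakdown and the exporter Slc40a1 were lower in knockout tissue, while both ferroxidases were higher and Ncoa4 had nearly equal means. All 10 genes passed the filter of 0.5 FPKM in 3 samples, each with every one of its 6 values above that level. Of these, 7 fell (Fth1, Ftl1, Hmox1, Hmox2, Blvra, Blvrb and Slc40a1), against 21.6% of all tested genes called lower, and 2 rose (Cp and Heph), against 21.9% called higher. The same 9 genes had groups that did not overlap, 7 of them lower and 2 higher, where 31.0% of all tested genes were lower and 29.1% higher without overlap. The median change was −0.73 on the log2(FPKM + 0.5) scale over the 10 genes and −0.03 over all tested genes. Since 43.5% of all genes were called and these 10 were picked with earlier results of the data known, the counts describe the set and do not single it out. In each of the 7 genes that fell, control replicate 2 had the highest and knockout replicate 3 the lowest value of all samples. The counts of 7 and 2 stayed the same without either library and without both.

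**Figure D1:**
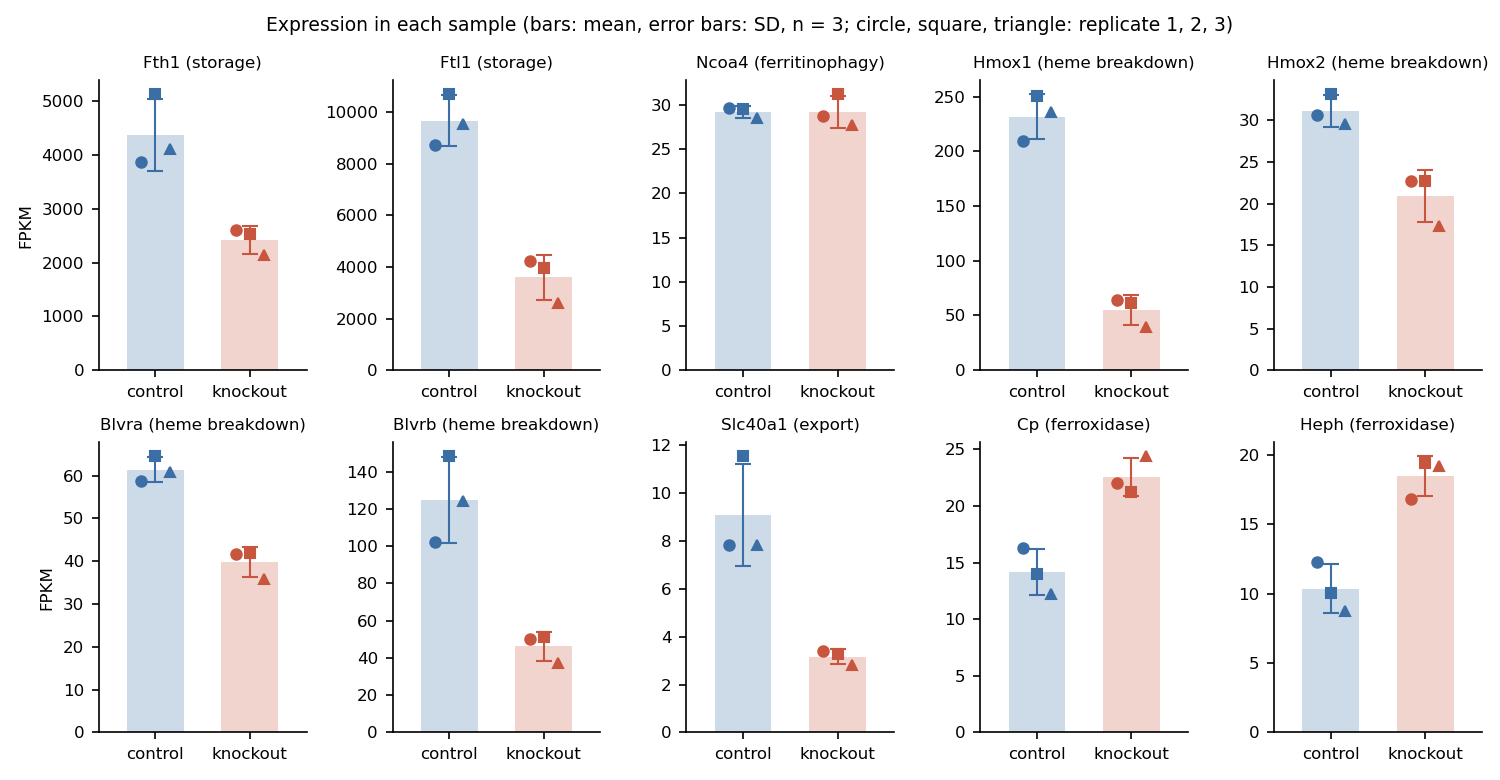
Expression of the 10 genes in FPKM (vertical axes, from 0) in 3 control and 3 knockout samples; bars are means, error bars SD, and circle, square and triangle mark replicates 1, 2 and 3. In 9 of the 10 panels the groups do not overlap, Ncoa4 being the exception.

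**Figure D2:**
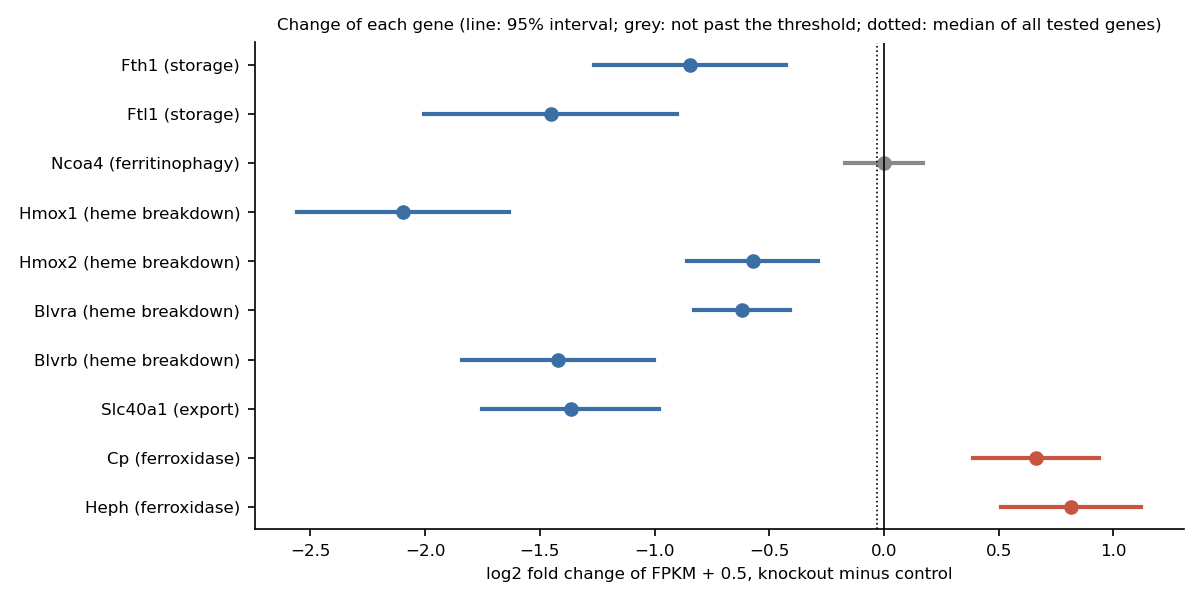
Change of each gene as log2 fold change of FPKM + 0.5, knockout minus control (horizontal axis), with its 95% interval from limma as a line; blue marks lower, red higher and grey not past the threshold. Hmox1 lies farthest to the left at −2.10, and the interval of Ncoa4 spans 0.

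Ferritin light chain mRNA was the most abundant of the set and fell more than heavy chain mRNA. Ftl1 (ENSMUSG00000050708, mm10 chromosome 7, 45457944 to 45459884, minus strand) was at 8727, 10699 and 9536 FPKM in the 3 controls (replicates 1 to 3 in order, as in all such series), against 4222, 3967 and 2599 FPKM in the 3 knockouts. Every knockout sample thus lay under the lowest control sample by more than the spread within either group. The means were 9654 ± 991 and 3596 ± 873 FPKM (SD, n = 3 each), and it fell by 1.45 ± 0.23 on the log2 scale (SE; limma adjusted p = 0.00555), with a value of −1.23 without knockout replicate 3. Fth1, the heavy chain (ENSMUSG00000024661, chromosome 19, 9982703 to 9985092, plus strand), was at 3862, 5137 and 4110.5 FPKM in control and 2607, 2522 and 2133 FPKM in knockout samples. Its means were 4369.9 ± 676 and 2421 ± 253 FPKM, and it fell by 0.85 ± 0.18 (SE; limma adjusted p = 0.0108). The control samples were the more scattered for Fth1, replicate 2 lying above the other controls.

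Both chains rank among the most abundant mRNAs of this tissue. In the 3 control samples Ftl1 took the 2nd, 1st and 2nd place among all genes by FPKM, and in the knockout samples the 4th, 4th and 11th. Fth1 went from places 5, 2 and 6 to places 11, 13 and 18. Together the 2 mRNAs took 1.18%, 1.48% and 1.28% of all gene-assigned reads in control and 0.634%, 0.602% and 0.436% in knockout samples. The shell's light to heavy mRNA ratio, which does not depend on library depth, shifted in the same samples. The FPKM ratio of Ftl1 to Fth1 was 2.26, 2.08 and 2.32 in control and 1.62, 1.57 and 1.22 in knockout samples, with no overlap. The log2 ratio differed by −0.61 between the groups (exact permutation test, two-sided, p = 0.1, the smallest that 3 against 3 samples can give; 0.1 also after adjustment over the 3 ratios compared).

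Ferritin genes have copies elsewhere in the genome that can share reads with them. The table held 14 other rows with ferritin names, of which 10 were listed at 0 in every sample. These included Ftmt, mitochondrial ferritin, for which 3 reads would correspond to at most 0.0819 FPKM. The copy with the most reads was Ftl1-ps1 on chromosome 13, at 19.3, 22.5 and 18.8 FPKM in control and 8.74, 8.59 and 5.71 FPKM in knockout samples. Its pattern followed that of Ftl1 at a far lower level, and no source used here says how the authors' counting treated reads that fit both, which leaves both ferritin values with that uncertainty.

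Ncoa4, the receptor that delivers ferritin to autophagosomes, did not pass the test. Control values were 29.6, 29.6 and 28.5 FPKM and knockout values 28.7, 31.3 and 27.8 FPKM (ENSMUSG00000056234, chromosome 14, 32159865 to 32179855). The groups overlapped fully, with means of 29.2 ± 0.631 and 29.3 ± 1.81 FPKM (SD, n = 3 each). The log2 fold change was 0.00 with a 95% interval from −0.17 to 0.17 (limma adjusted p = 0.998), so the data bound a change of its whole-tissue level in either direction to about that size on the log2 scale. No such bound follows for any cell type. Relative to the mean log2 level of the macrophage markers Ncoa4 differed by 1.11, and relative to that of the mature adipocyte markers by −1.68, both with no overlap. Among 15 genes of ferritinophagy and autophagosome formation, 3 fell and 1 rose while 11 did not pass the test, and their median was 0.01. That is 26.7% called, against 43.5% of all tested genes. Map1lc3a, an ATG8-family protein of the autophagosome membrane, rose by 0.77 ± 0.11 (SE). Atg5, needed to attach that family to lipid, fell by 0.27 ± 0.07, and Gabarap, another ATG8-family protein, fell by 0.35 ± 0.10. The limma adjusted p was 0.00426 for Map1lc3a, 0.0190 for Atg5 and 0.0267 for Gabarap. Tax1bp1, the autophagy receptor that works with NCOA4, was at 62.4 ± 1.72 FPKM in control and 63.7 ± 4.27 FPKM in knockout tissue (limma adjusted p = 0.783).

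All 4 genes of heme breakdown fell, and the inducible oxygenase fell most. Hmox1, heme oxygenase 1 (ENSMUSG00000005413, chromosome 8, 75093591 to 75100596, plus strand), was at 209, 250.4 and 236 FPKM in control and at 64.1, 61.2 and 39.4 FPKM in knockout samples. The lowest control value was more than 3 times the highest knockout value. The means were 232 ± 20.8 and 54.9 ± 13.5 FPKM (SD, n = 3 each), a level 4.22 times higher in control, and the log2 fold change was −2.10 ± 0.19 (SE; limma adjusted p = 0.00343). Of the 14383 tested genes, 29 had a more negative fold change. Without knockout replicate 3 the value was −1.88.

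Hmox2, the constitutive heme oxygenase (ENSMUSG00000004070, chromosome 16, 4726361 to 4766742), had 30.7, 33.2 and 29.6 FPKM in control and 22.7, 22.8 and 17.3 FPKM in knockout samples. It fell by 0.57 ± 0.12 (SE; limma adjusted p = 0.0111), the smallest decrease among the 7. Part of the gene overlaps Cdip1 on the other strand, itself at 13.6 to 24.1 FPKM, and since the strand setting of the counting is unknown here, reads of the shared stretch cannot be assigned to one of them with certainty. The ratio of Hmox1 to Hmox2 was 6.83, 7.54 and 7.98 in control and 2.83, 2.69 and 2.28 in knockout samples. The 2 groups did not overlap, and the mean log2 ratio differed by −1.53 between them (exact permutation test, two-sided, p = 0.1, the smallest possible here).

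The 2 biliverdin reductases, which are unrelated enzymes, also fell unequally. Blvrb, biliverdin reductase B (ENSMUSG00000040466, chromosome 7, 27447978 to 27466144), had 102, 148 and 124 FPKM in control and 50.3, 51.0 and 37.4 FPKM in knockout samples, a fall by 1.42 ± 0.18 (SE; limma adjusted p = 0.00376). Blvra, the form that acts on the biliverdin of heme breakdown in adult tissue (ENSMUSG00000001999, chromosome 2, 127070665 to 127097084), had 58.6, 64.6 and 60.9 FPKM in control and 41.8, 41.9 and 35.9 FPKM in knockout samples. It fell by 0.62 ± 0.09 (SE; limma adjusted p = 0.00451). The ratio of Blvrb to Blvra was 1.74, 2.30 and 2.04 in control and 1.20, 1.22 and 1.04 in knockout samples, so the 2 mRNAs were close to equal in the knockout (difference of log2 ratios −0.80, exact permutation test, two-sided, p = 0.1, the smallest possible here).

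**Figure D3:**
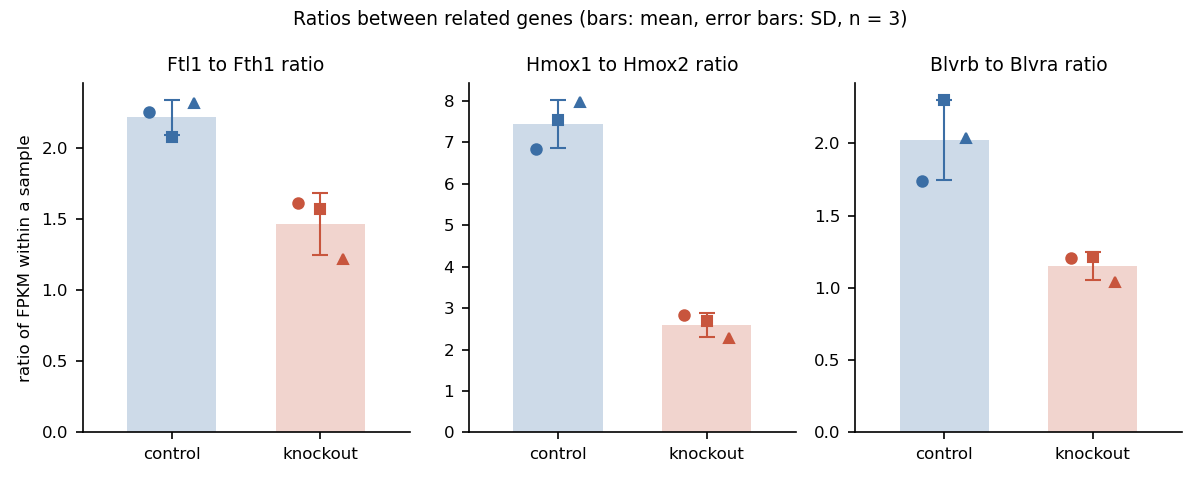
Ratios of FPKM between related genes within each sample (vertical axes, from 0), with bars for means, error bars for SD (n = 3) and circle, square and triangle for replicates 1, 2 and 3. The groups do not overlap in any of the 3 ratios, with the ratio of Hmox1 to Hmox2 going from 6.83 or more to 2.83 or less.

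Heme oxygenase 1 is a known target of the activator NRF2 and the heme-sensing repressor BACH1, so 19 other genes of that axis were read from the same fit. Of these, 13 fell (68.4%, where 21.6% of all tested genes were called lower) and 6 did not pass the test, with a median of −0.64. This list was chosen with earlier results of these data known, so the share describes the list and does not single it out. Whether NRF2 or BACH1 had a part in the fall of Hmox1 was not tested. Prdx1, a peroxiredoxin, went from 543, 877 and 742 FPKM in control to 180, 178 and 144 FPKM in knockout samples, a change of −2.09 ± 0.19 (SE). Txnrd1, thioredoxin reductase 1, fell by 1.28 ± 0.12 and Srxn1, sulfiredoxin, by 1.86 ± 0.18 (limma adjusted p = 0.00343 for Prdx1 and Txnrd1 and 0.00363 for Srxn1). Of the regulators themselves, Bach1 fell by 0.99 ± 0.15 and Nfe2l2, which encodes NRF2, by 0.48 ± 0.10, while Keap1 (−0.13 ± 0.07) and Mafk (0.10 ± 0.09) did not pass the test (limma adjusted p = 0.00527, 0.0103, 0.161 and 0.409). Me1 (0.51 ± 0.24), G6pdx (0.08 ± 0.08), Pgd (−0.23 ± 0.09) and Spic (−0.14 ± 0.17) did not pass it either (limma adjusted p = 0.127, 0.456, 0.0845 and 0.541). The core letters of the site that NRF2 binds, TGACNNNGC, were looked for on both strands in the 250 bases before each transcription start of the RefSeq promoter table (GRCm38.p6). Promoters of 7 of the 10 genes are in that table, those of Hmox1, Slc40a1 and Heph not being among them, and the letters occurred for Blvra and for 1 start of Ncoa4. They were not found for Fth1, Ftl1, Hmox2 and Blvrb, which also fell, or for Cp, which rose, and Ncoa4 did not pass the test between the groups. The match before Ncoa4 lies within chr14:32165730-32165768 and is not printed. Of the 2 genes with a match, Blvra was picked for display because it fell, and whether the letters had a part in that fall was not tested. In the stretch before Blvra, the match, on the minus strand, is in capitals.
Blvra, chr2:127070593-127070631, plus strand: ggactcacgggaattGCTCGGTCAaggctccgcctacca
The same letters were in 10.2% of all 32851 promoter windows. That share is per window, and several of the 7 genes have more than 1 window. It cannot be set beside a count of genes. No match in a window says only that the letters are not there.

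Ferroportin fell while both ferroxidases rose. Slc40a1 (ENSMUSG00000025993, chromosome 1, 45908068 to 45926523, minus strand) was the least abundant gene of the set, at 7.85, 11.6 and 7.84 FPKM in control and 3.40, 3.29 and 2.83 FPKM in knockout samples. Control replicate 2 stood above the other controls, but all 3 control samples lay above every knockout sample. The means were 9.08 ± 2.14 and 3.17 ± 0.299 FPKM (SD, n = 3 each), and on the log2 scale it fell by 1.36 ± 0.16 (SE; limma adjusted p = 0.00372). It was −1.30 without knockout replicate 3.

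Cp, ceruloplasmin, the ferroxidase of plasma that also has a membrane-anchored form (ENSMUSG00000003617, chromosome 3, 19957054 to 20009145), had 16.3, 14.0 and 12.2 FPKM in control and 22.0, 21.3 and 24.4 FPKM in knockout samples. It rose by 0.66 ± 0.12 (SE; limma adjusted p = 0.00690), and a value per gene does not tell its forms apart. Its end overlaps Hps3 on the other strand, at 5.73 to 7.72 FPKM, so reads there are uncertain. Heph, hephaestin, the membrane ferroxidase best known from the gut (ENSMUSG00000031209, chromosome X, 96455359 to 96574485), had 12.2, 10.0 and 8.76 FPKM in control and 16.8, 19.4 and 19.2 FPKM in knockout samples. It rose by 0.82 ± 0.13 (SE; limma adjusted p = 0.00549). The 2 ferroxidase mRNAs moved nearly in parallel, and their mean level per kilobase exceeded that of ferroportin in both groups, although in control tissue Heph and Slc40a1 overlapped.

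By mean FPKM the order in control tissue was Ftl1, Fth1, Hmox1, Blvrb, Blvra, Hmox2, Ncoa4, Cp, Heph and Slc40a1. In that order the values of Hmox2 and Ncoa4, of Cp and Heph and of Heph and Slc40a1 overlapped between neighbours. In knockout tissue it was Ftl1, Fth1, Hmox1, Blvrb, Blvra, Ncoa4, Cp, Hmox2, Heph and Slc40a1, where Ftl1 overlapped Fth1, Hmox1 overlapped Blvrb, Blvrb overlapped Blvra, Cp overlapped Hmox2 and Hmox2 overlapped Heph. The step from Heph at 18.5 ± 1.44 FPKM to Slc40a1 at 3.17 ± 0.299 FPKM was the clearest gap at the low end there.

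The genes that fell were also set against the macrophage marker level of the same sample. The 19 markers were themselves split, from Gpnmb at −2.33 ± 0.47 (SE) on the log2 scale to Lyve1 at 0.45 ± 0.24, which did not pass the test, and neither did Timd4 (0.34), Cd163 (0.02), Cd74 (−0.09) and Fcgr1 (−0.80); these markers were named after their values were seen. The mean log2 level of the 19 macrophage markers was 6.67, 6.78 and 6.73 in control and 6.06, 5.84 and 4.95 in knockout samples. Hmox1 was above this mean by 1.04, 1.19 and 1.15 in control and by −0.04, 0.10 and 0.36 in knockout samples, a group difference of −0.99. Of the 19 markers, 1 had a more negative fold change than Hmox1, and 9 had a more negative one than Ftl1, Blvrb or Slc40a1, so these relative values rest on which markers were averaged. Ftl1 differed by −0.34 on this relative scale with no overlap, and Blvrb by −0.31 and Slc40a1 by −0.26, both with overlapping groups. Fth1 overlapped too, at 0.26, and Hmox2 and Blvra lay higher in the knockout by 0.54 and 0.49. These values place each gene beside the markers and do not show which cells made its mRNA. Relative to the mean of the 18 mature adipocyte markers, each of the 10 genes was lower in the knockout, from −0.86 for Heph to −3.78 for Hmox1.

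**Figure D4:**
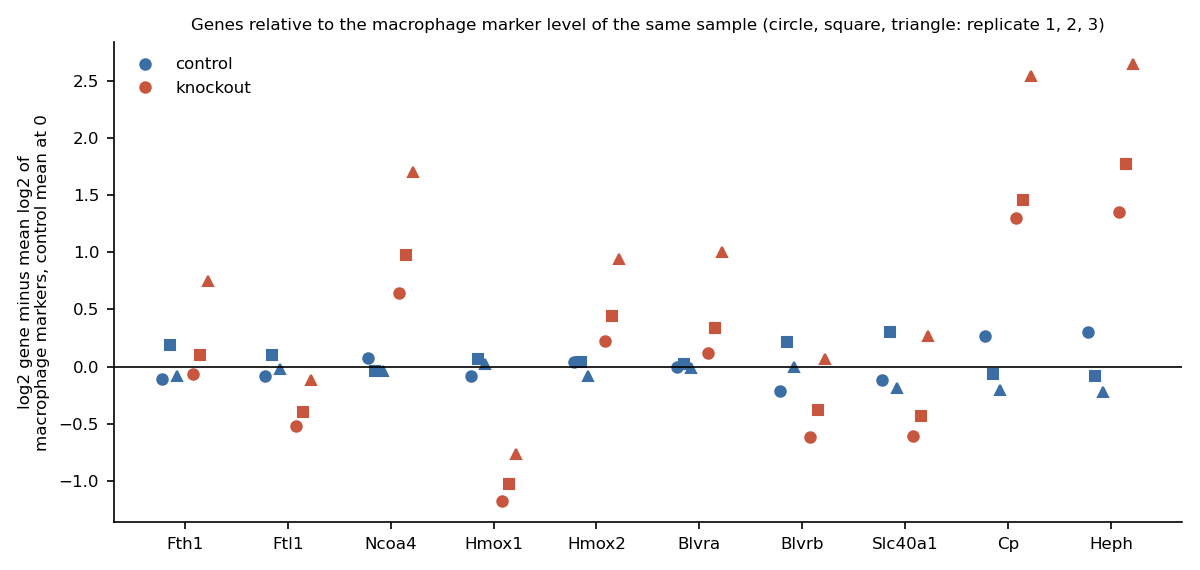
Log2 level of each gene minus the mean log2 level of 19 macrophage markers in the same sample (vertical axis), shifted so that the control mean is 0, for control (blue) and knockout (red) samples, with circle, square and triangle for replicates 1, 2 and 3. The knockout values of Hmox1 and Ftl1 stay under their control values, and those of Fth1, Blvrb and Slc40a1 overlap theirs. Those of Ncoa4, Hmox2, Blvra, Cp and Heph lie above.

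Mesothelial and endothelial markers, like the mature adipocyte markers above, rose in the same samples as the ferroxidases, while fibroblast markers did not. Relative to the mean log2 level of the 18 mature adipocyte markers, of which 17 rose, Cp differed by −1.02 and Heph by −0.86. Neither overlapped between the groups. Mesothelial cells, which line the surface of visceral fat, were read through 10 markers, of which 8 rose, where 21.9% of all tested genes were called higher. The summed level of these markers was 74.4 to 78.5 FPKM in control and 122 to 141 FPKM in knockout samples. Relative to their mean log2 level, Cp differed by 0.03 and Heph by 0.18 between the groups, with overlapping values. All 9 endothelial markers rose, from a summed 122 to 147 FPKM to 274 to 410.5 FPKM. Relative to them Cp differed by −0.51 with no overlap and Heph by −0.35 with overlapping values. Of 14 fibroblast and progenitor markers 4 fell and 10 did not pass the test, where 21.6% of all tested genes were called lower. The summed level of these markers was 2797 to 3151 FPKM in control and 1449 to 2424 FPKM in knockout samples. Relative to their mean log2 level, Cp was higher in the knockout by 1.07 and Heph by 1.23, with no overlap. No marker of the mesothelial, endothelial and fibroblast lists was at 0 in all samples. The part of these 3 cell types and of adipocytes in the rise of Cp and Heph was not tested. Erythroid mRNAs, which can come with blood in the tissue, rose as well, and their source was not tested. The summed level of 8 such genes was 518 to 912 FPKM in control and 1469 to 2007 FPKM in knockout samples, and the 5 that could be tested, of which the hemoglobin genes Hbb-bs and Hba-a1 were the most abundant, all rose while Hmox1 fell.

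Other genes of iron and heme handling were read from 3 lists, in which 17 of 35 tested genes, 48.6%, were called, near the 43.5% of all tested genes. Of 13 tested genes of iron uptake and reduction, 4 rose and 2 fell, Tfrc itself being 1 of those 2, with a median of −0.09. Slc22a17, a receptor for lipocalin 2, rose by 1.06 ± 0.09 (SE), Steap4, a metalloreductase, by 1.41 ± 0.16 and Trf, transferrin, by 0.77 ± 0.13 (limma adjusted p = 0.00297, 0.00370 and 0.00569). Of 10 tested genes of iron sensing and chaperones, 4 rose and 1 fell, with a median of 0.31. Hfe, a partner of transferrin receptors, rose by 0.68 ± 0.08, Bmp6, the growth factor that signals iron load to hepcidin, by 1.23 ± 0.20, and Aco1, which encodes iron regulatory protein 1, by 0.54 ± 0.11 (limma adjusted p = 0.00370, 0.00607 and 0.0102). Of 12 tested genes of heme and hemoglobin handling, 2 rose and 4 fell, with a median of 0.09. Hebp1, a heme-binding protein, rose by 0.68 ± 0.10, whereas Flvcr1, named as a heme exporter, fell by 1.10 ± 0.21. Slc46a1, a folate and heme carrier, rose by 0.42 ± 0.09 (limma adjusted p = 0.00466, 0.00918 and 0.0123).

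**Figure D5:**
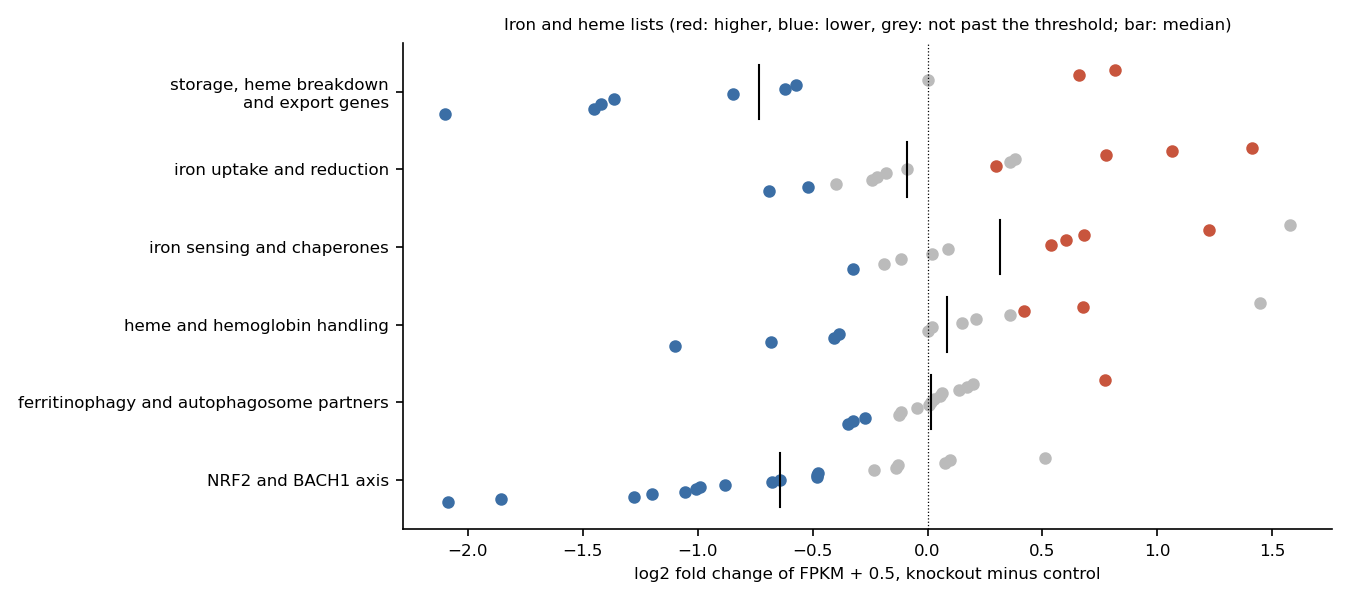
Log2 fold change of FPKM + 0.5, knockout minus control (horizontal axis), for the 10 genes and for 5 lists of related genes (rows); each point is a gene, red if higher, blue if lower and grey if not past the threshold, and the black bar is the median. The NRF2 and BACH1 list has a median of −0.64 and the list of autophagosome partners 0.01.

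The genes with the most similar course over the 6 samples were found by the root mean square difference of log2 values, each gene centred on its own mean, among 8270 named genes with at least 5 FPKM on average. For Fth1 they were Snx24 (0.04), a sorting nexin, Plxna1 (0.05), a semaphorin receptor, and Clcn7 (0.06), a lysosomal chloride transporter. For Ftl1 they were Fkbp1b (0.05), Rnh1 (0.07), the ribonuclease inhibitor, and Anxa4 (0.07), an annexin. Hmox1 had more distant neighbours in Bst1 (0.12), Stac2 (0.15) and Prdx1 (0.17). Those of Slc40a1 were Hvcn1 (0.12), a proton channel, Txnrd1 (0.12) and Cbr3 (0.13), a carbonyl reductase. Within the set the closest pairs by the same measure were Hmox2 with Blvra (0.07), Ftl1 with Blvrb (0.11) and Cp with Heph (0.11), while the 2 ferritin chains were 0.33 apart. These distances describe likeness over 6 libraries that mostly differ by group.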

How the data were processed

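The deposited table holds FPKM for each gene and sample, per the file headers, made by the authors from reads handled with STAR 2.5 and HTSeq 0.6.1 on mm10, per the submitters' processing notes. The sources used here give no strand setting, annotation release or filter. Per the labels' protocols, libraries came from Trizol-extracted total RNA with the NEBNext Ultra RNA kit. The table's other numeric column, gene length in bases, was used as deposited. FPKM times length gave whole reads within 0.01 of a read for 100% of values above 0. Genes with at least 0.5 FPKM in 3 samples were kept and limma 3.58.1 (in R 4.3.3, with statmod 1.5.0) was run on log2(FPKM + 0.5) with its trend and robust options. Tests were two-sided, and p-values were adjusted by Benjamini-Hochberg across every gene that passed the filter. Standard errors beside fold changes are limma's, and fold changes on this scale understate those of low genes. The procedure was tested on simulated data. Ratios within a sample were compared by exact permutation. Of 35275 identifiers, 34490 matched GENCODE M21, and of 154 list entries 153 were found. The genes and lists were chosen with earlier results of these data known. Named genes were the 10 members, Tfrc, for each pathway list up to 3 called genes in order of p, or 2 in order of abundance where none was called, and the 3 genes nearest in course to each of Fth1, Ftl1, Hmox1 and Slc40a1. Bach1, Nfe2l2, Keap1, Mafk, Me1, G6pdx, Pgd, Spic, Tax1bp1 and the ferritin copies were named after their values were seen. No replicate pair agreed within sampling noise. Whether every library is from its own mouse is not said in the labels, and p-values therefore reflect only the spread among these libraries, which may be technical. Tables and figures were made with Python 3.11.15, pandas 2.3.3, scipy 1.17.1 and matplotlib 3.10.9.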

Additional observations from a re-analysis of the deposited data

How the results depend on the processing

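The calls of the 10 genes were the same under all 14 alternatives run, with 7 lower and 2 higher in each: pseudocounts of 0.1 and 1, a filter at 1 FPKM, no filter, median-of-ratios scaling, the replicate block, each sample left out, and, chosen after seeing the data, limma-voom on recovered reads and leaving out control replicate 2 with knockout replicate 3. The highest limma adjusted p of a called gene was 0.0493, for Hmox2 without control replicate 2. The value of Ncoa4 changed sign without control replicate 3 (−0.018) and without knockout replicate 2 (−0.048), never past the threshold, and reached 0.045 with control replicate 2 and knockout replicate 3 both left out. Over all tested genes the number called was 6253, and between 3336 and 5861 with 1 sample left out. With the replicate block it was 4581, and the block changed no call among the 10 genes. Same-numbered samples did not deviate together (correlations of −0.24, 0.03 and −0.18 across genes), no sample correlated best with its own number, and the numbers were not taken as pairs. Count models planned for raw counts were not run. Counting error is small for the ferritin chains (46657 reads or more per sample) and largest for Slc40a1 (281 to 1182 reads).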

Other observations

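Hamp, which encodes hepcidin, the hormone that removes ferroportin from the cell surface, was near the detection limit in control tissue at 0.175, 0.196 and 0.433 FPKM. In knockout replicates 1, 2 and 3 it was at 6.66, 0.966 and 0.606 FPKM, so that all knockout samples lay above the controls and replicate 1 far above the rest, with a limma adjusted p of 0.0962. Hpx, the plasma heme-binding protein hemopexin, was at 5.52, 2.28 and 0.991 FPKM in the same 3 samples and at 1.69, 1.30 and 3.58 FPKM in control (limma adjusted p = 0.770). Ambp, which encodes another plasma heme binder, was at 5.12, 2.15 and 0.187 FPKM in knockout samples and at 0.135, 0 and 1.10 FPKM in control (limma adjusted p = 0.182). All 3 were highest in knockout replicate 1, and they were picked out after their values were seen.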
